A study of Mus musculus with 4 samples.

Results

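Leukaemia inhibitory factor (Lif) and 8 genes of the cytokine pathway it uses were followed in mouse liver after an extract of Gynura segetum. The 9 genes, of 25239 listed, are the ligands Lif, Clcf1 and Ctf1, the receptor chains Lifr, Il6st, Il6ra and Osmr, the transcription factor Stat3 and the inhibitor Socs3. Lif was chosen because its counts rose from almost none in this same comparison, so its values are given as a description with no test. The other 8 were chosen by their role, with earlier results of these data known. C57BL/6 mice aged 6 to 8 weeks received normal saline (control) or the extract, which holds pyrrolizidine alkaloids, intragastrically for 3 weeks, at a daily dose of 30 g/kg. The extract had been concentrated to 2 g/mL. Each group has 2 libraries of RNA from whole liver, and the labels do not say that they come from separate mice, so the spread behind each p-value is that between these libraries and may be technical. Times of collection are not stated.

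Cytokines of this family signal through a shared receptor chain, gp130, which Il6st encodes. Lif and cardiotrophin 1 (Ctf1) bind a pair of gp130 and the Lif receptor (Lifr), interleukin 6 binds Il6ra together with gp130, and oncostatin M in the mouse binds mainly Osmr with gp130. Janus kinases bound to these chains phosphorylate Stat3, which enters the nucleus and turns on, among others, Socs3, whose protein binds gp130 and damps the signal. In the liver this pathway is known for driving acute phase proteins in hepatocytes and for its part in regeneration.

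Promoter windows from RefSeq (GRCm38.p6, 250 bases before to 50 after the start site, printed 5′ to 3′) are shown for Lif and Socs3, which both had higher levels in the extract libraries, because Socs3 is a known target of Stat3. The window of Lif is chr11:4257318-4257617 on the plus strand, and that of Socs3 is chr11:117969317-117969616 on the minus strand. Capitals mark TTCNNNGAA, a motif that STAT dimers bind and that reads the same on both strands.
Lif: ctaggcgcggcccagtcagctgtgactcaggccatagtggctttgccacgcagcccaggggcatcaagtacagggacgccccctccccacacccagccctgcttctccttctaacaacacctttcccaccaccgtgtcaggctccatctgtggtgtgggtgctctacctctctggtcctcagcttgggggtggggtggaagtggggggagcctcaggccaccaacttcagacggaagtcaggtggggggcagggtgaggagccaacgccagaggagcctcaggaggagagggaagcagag
Socs3: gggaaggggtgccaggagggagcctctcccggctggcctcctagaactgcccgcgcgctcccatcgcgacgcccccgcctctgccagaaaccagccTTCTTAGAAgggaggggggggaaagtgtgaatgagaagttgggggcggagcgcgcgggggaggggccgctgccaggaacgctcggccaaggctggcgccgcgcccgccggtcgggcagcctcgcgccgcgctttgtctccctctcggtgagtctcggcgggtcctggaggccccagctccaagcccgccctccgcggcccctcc
The Socs3 window held 1 match, which begins 154 bases before the start site of that window. The whole window, with the match, lies inside the interval of the gene (117966079 to 117970336). Its start site is therefore not the outermost end of the gene. The Lif window held 0 matches. Of the members, 8 had a window (Lifr had 2), and of these only that of Socs3 held the motif, which 8.30% of all 32851 windows hold. Both Lifr windows and that of Osmr also lie inside the intervals of their genes. A match is a description of these letters, and no match says nothing about binding elsewhere.

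The libraries held 49711750 and 32215268 gene counts in control and 40013188 and 45754235 in extract. With edgeR's quasi-likelihood test over 13963 genes, 8.54% were past an adjusted p of 0.05, with 686 genes (4.91%) higher and 507 (3.63%) lower after the extract. At an unadjusted p under 0.05, 3280 of the 13963 genes passed, in either direction. Scaling by total counts moved the median log2 fold change of all genes by 0.17 and gave 940 higher and 338 lower. Hepatocyte markers such as albumin summed to 103490 to 156542 CPM (counts per 1000000 reads, with library sizes scaled by the trimmed mean of M-values, TMM), as in liver tissue. Kupffer cell markers fell, with 6 of 7 lower and a summed level of 378 to 471 CPM in control and 27.9 to 28.1 CPM in extract libraries. Of 7 sinusoidal endothelial markers 5 were lower, with sums of 286 to 295 against 181 to 185 CPM, and of 9 stellate cell and fibroblast markers 2 were lower, with sums of 511 to 723 against 397 to 431 CPM. In whole liver, fewer cells of a type and less RNA per cell cannot be told apart.

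Lif went from at most 4 reads in a control library to 488 or more in each extract library. The gene lies on chromosome 11 (4257568 to 4272514, GRCm38.p6, the assembly of mm10). Control replicates 1 and 2 held 4 and 0 reads of it, extract replicates 1 and 2 held 670 and 488. On the CPM scale these are 0.0834 and 0 against 15.5 and 10.2. Both extract libraries lay far above both controls, and the lower of them held 488 reads where the higher control held 4. The pooled level was 248-fold higher, with an exact 95% interval of 96.5 to 911 that covers counting error only. The fitted log2 fold change was 7.91, a value that depends on the small count edgeR adds to a gene near 0. It ran from 7.23 without control replicate 2 to 12.0 without control replicate 1, which leaves only the control library with 0 reads. Lif passed the filter on low counts through its extract libraries alone.

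The other ligands among the members changed far less. Clcf1, cardiotrophin-like cytokine factor 1, lies on chromosome 19 (4214238 to 4223505). It had 54 and 27 counts in control and 95 and 113 in extract libraries, or 1.13 and 0.909 against 2.20 and 2.37 CPM. The groups did not overlap, but a log2 fold change of 1.16 with an SE of 0.41 was not past the threshold (edgeR adjusted p = 0.151). It was past it without control replicate 1 (adjusted p = 0.0423). Of all stretches of 75 bases in Clcf1 transcripts, 6.05% also occur in a neighbouring gene model. Ctf1, on chromosome 7 (127712676 to 127718188), had 186, 132, 213 and 219 counts, or 3.88 and 4.44 CPM in control and 4.94 and 4.60 CPM in extract libraries. The extract libraries lay above the controls by little, at a log2 fold change of 0.20 with a 95% interval of -0.44 to 0.83 (edgeR adjusted p = 0.722). Clcf1 counts per Ctf1 count were 0.290 and 0.205 in control and 0.446 and 0.516 in extract libraries.

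**Figure D1:**
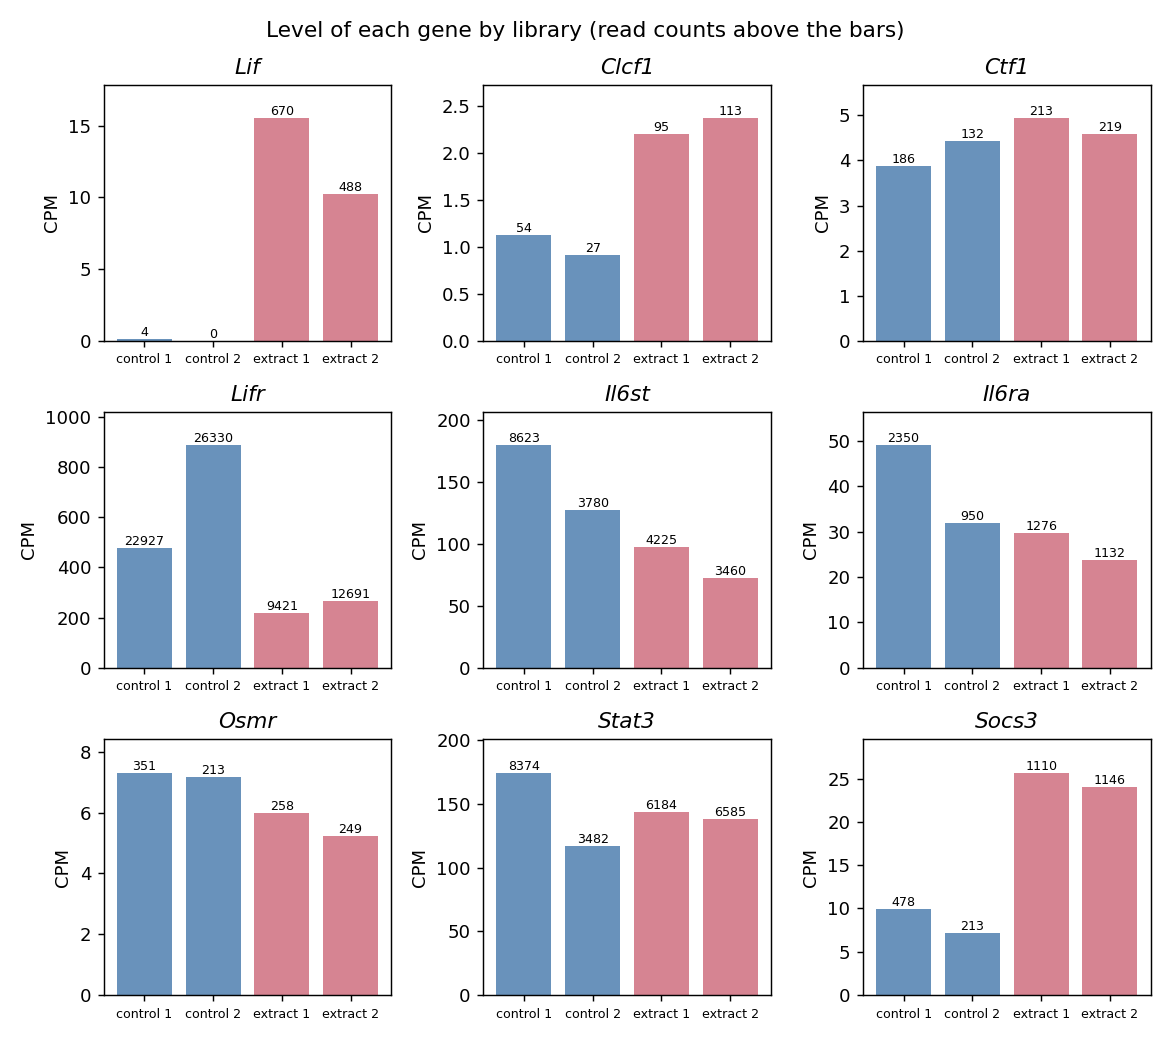
Level of the 9 genes in each library in CPM (bars, axes from 0, blue for control and red for extract), with read counts above the bars. Lif has 4 and 0 reads in control and 670 and 488 in extract libraries, Socs3 is higher and Lifr lower in both extract libraries, and the control libraries differ from each other in Lifr, Il6st and Stat3.

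Lifr, the chain that makes gp130 responsive to Lif, fell. It lies on chromosome 15 (7090610 to 7197489) and had 22927 and 26330 counts in control and 9421 and 12691 in extract libraries. The levels were 478 and 886 CPM against 218 and 266 CPM. The groups did not overlap, although control replicate 2 stood well above control replicate 1. The edgeR log2 fold change was -1.49 with an SE of 0.31 (adjusted p = 0.0392). This call was lost without extract replicate 1 (adjusted p = 0.210, log2 fold change -1.37), without extract replicate 2 (0.119, -1.67) and, narrowly, without a low-count filter (0.0519). Without control replicate 2, the higher control, the log2 fold change was -0.98. That fit holds 1 control library and takes its spread from the extract libraries alone. Hepatocytes express Lifr, and of 7 hepatocyte markers 1 was lower, with summed levels of 152793 to 156542 CPM in control and 103490 to 108452 CPM in extract libraries. Their part in the Lifr result was not tested.

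Il6st, which encodes gp130 itself, was lower in both extract libraries without passing the threshold. The gene, on chromosome 13 (112464070 to 112506860), had 8623, 3780, 4225 and 3460 counts. These are 179.8 and 127.2 CPM in control and 98.0 and 72.6 CPM in extract libraries. The log2 fold change was -0.85, with a 95% interval of -1.39 to -0.31 (edgeR adjusted p = 0.0722). DESeq2 called it lower (adjusted p = 0.00539), as did edgeR without a low-count filter (0.0274) and with a replicate block (0.00828). By edgeR it did not pass with total-count scaling (0.147), DESeq2's size factors (0.0676) or a stricter low-count filter (0.0825). Nor did it pass with no robust step (0.0764) or the 20 most abundant genes left out (0.0605). Leaving out control replicate 1 or 2 gave log2 fold changes of -0.58 and -1.07. Leaving out extract replicate 1 or 2 gave -1.09 and -0.67.

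The cytokine-specific chains showed smaller differences, and neither passed. Il6ra, the interleukin 6 receptor, on chromosome 3 (89869324 to 89913196), had 49.0 and 32.0 CPM in control and 29.6 and 23.8 CPM in extract libraries. Its log2 fold change was -0.60 (95% interval -1.16 to -0.045, edgeR adjusted p = 0.182), and without control replicate 2 it was -0.88. Control replicate 2 and extract replicate 1 were close, and with CPM from total counts, at 29.5 and 31.9, they changed places. Osmr, the oncostatin M receptor chain, lies on chromosome 15 (6813568 to 6874968) like Lifr. It had 351 and 213 counts in control and 258 and 249 in extract libraries, or 7.32 and 7.17 against 5.98 and 5.23 CPM. Its log2 fold change was -0.37 (95% interval -0.91 to 0.17, edgeR adjusted p = 0.397).

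Within a library, the ratio of Lifr counts to Il6st counts was 2.66 and 6.97 in control and 2.23 and 3.67 in extract libraries. These ratios, which do not depend on library scaling, overlapped between the groups, since control replicate 2 combined the most Lifr with less Il6st than control replicate 1. The ratio of Osmr counts to Lifr counts was 0.0153 and 0.00809 in control and 0.0274 and 0.0196 in extract libraries, with no overlap. Il6ra counts per Il6st count were 0.273 and 0.251 against 0.302 and 0.327.

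**Figure D2:**
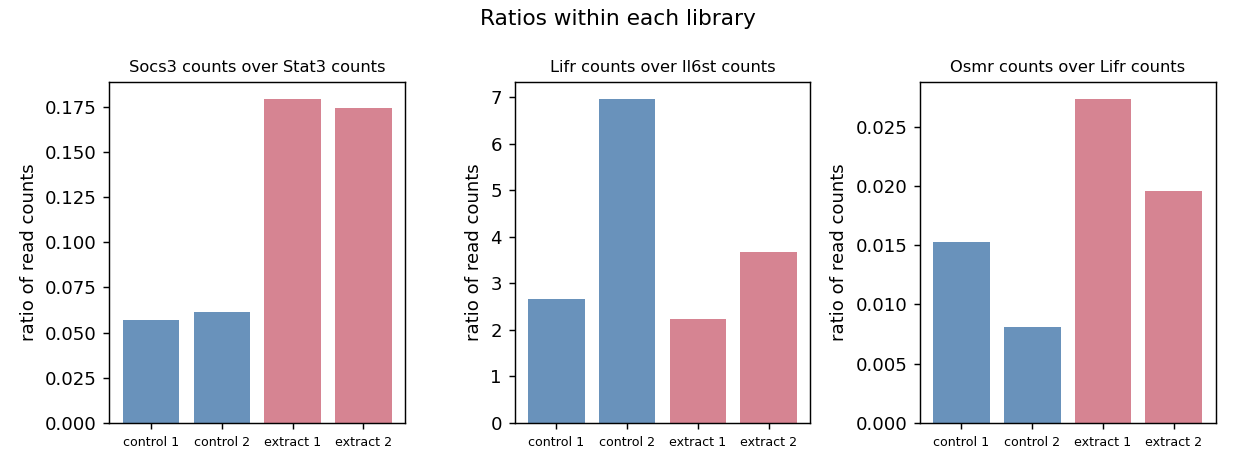
Ratios of read counts of 2 genes within each library (bars, axes from 0, blue for control and red for extract). Socs3 per Stat3 is about 0.06 in both control and 0.174 and 0.179 in the extract libraries, Lifr per Il6st overlaps between the groups, and Osmr per Lifr is higher in both extract libraries.

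Stat3, the transcription factor these receptors activate, did not pass the threshold, while its target and inhibitor Socs3 rose. Stat3, on chromosome 11 (100886806 to 100939594), had 174.6 and 117.2 CPM in control and 143.4 and 138.2 CPM in extract libraries. Both extract libraries lay between the controls. The log2 fold change was -0.052 (95% interval -0.54 to 0.43, edgeR adjusted p = 0.917), and its sign turned with total-count scaling (0.11) and without control replicate 1 (0.26). RNA levels do not show phosphorylation, by which Stat3 is activated. Socs3, also on chromosome 11 (117966079 to 117970336), had 478 and 213 counts in control and 1110 and 1146 in extract libraries. Its levels were 9.96 and 7.17 against 25.7 and 24.1 CPM, so that the groups lay far apart compared with the spread within them. The edgeR log2 fold change was 1.53 with an SE of 0.20 (adjusted p = 0.00749), and the adjusted p stayed under 0.05 in each of 12 alternatives, at most 0.0303. Socs3 counts per Stat3 count were 0.0571 and 0.0612 in control and 0.179 and 0.174 in extract libraries.

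Of the 8 members other than Lif, all passed the filter on low counts, 1 (Socs3) was higher and 1 (Lifr) lower, and 6 did not pass. Over all genes tested, 4.91% were higher and 3.63% lower. For 3 of the 8 the extract libraries lay above both controls and for 4 below, where the groups did not overlap for 54.4% of all genes tested. The comparison served to choose Lif, and nothing is read from these counts.

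**Figure D3:**
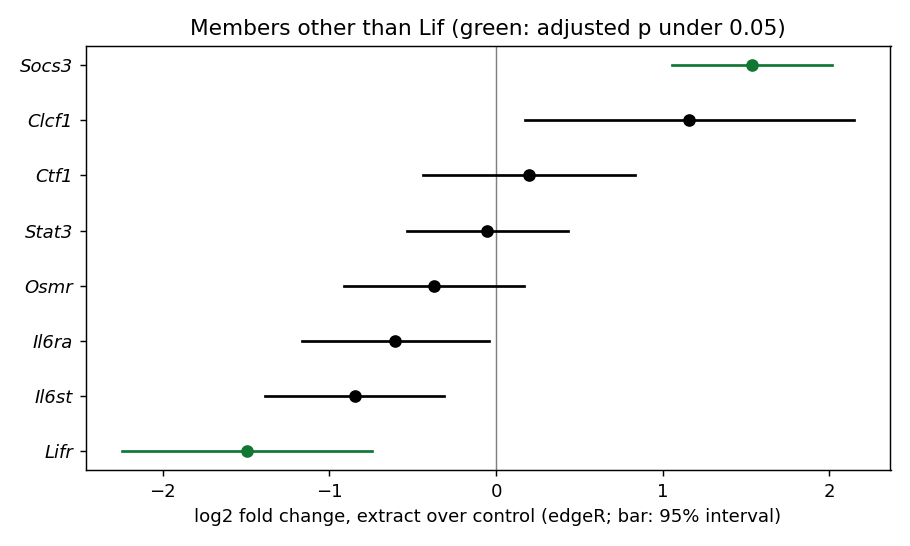
Log2 fold change of the 8 members other than Lif, extract over control (points, edgeR, bars for the 95% interval, green where the adjusted p is under 0.05). Socs3 lies at 1.53 and Lifr at -1.49, and the intervals of Ctf1, Stat3 and Osmr include 0.

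Per exon length, Lif moved from the lowest of the 9 genes to the sixth. On the RPKM scale (CPM over the kilobases of merged exons), Lif had 0.0192 and 0 in control and 3.57 and 2.35 in extract libraries. Ctf1, at 2.71 and 2.52 RPKM, and Il6ra, at 3.42 and 2.75, had extract levels that overlapped those of Lif. Clcf1 had 0.296 and 0.239 RPKM in control and 0.579 and 0.623 in extract libraries, so its extract level stayed below that of Lif. Lifr was highest in every library, with 44.4 and 82.2 RPKM in control and 20.3 and 24.7 in extract libraries. Stat3 followed with 18.3 and 12.3 against 15.0 and 14.5 RPKM, and Il6st with 16.2 and 11.5 against 8.83 and 6.54 RPKM, overlapping Stat3 in control. Socs3 rose from 3.45 and 2.48 to 8.90 and 8.32 RPKM and overlapped Il6st in the extract libraries. Osmr stayed low, at 0.604 and 0.592 against 0.494 and 0.431 RPKM. With the longest transcript as length, Lif kept place 6 in extract libraries, with Ctf1 now above it (place 5) and Il6ra below it (place 7). Il6st then took a higher place than Socs3, and Osmr a higher place than Clcf1.

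**Figure D4:**
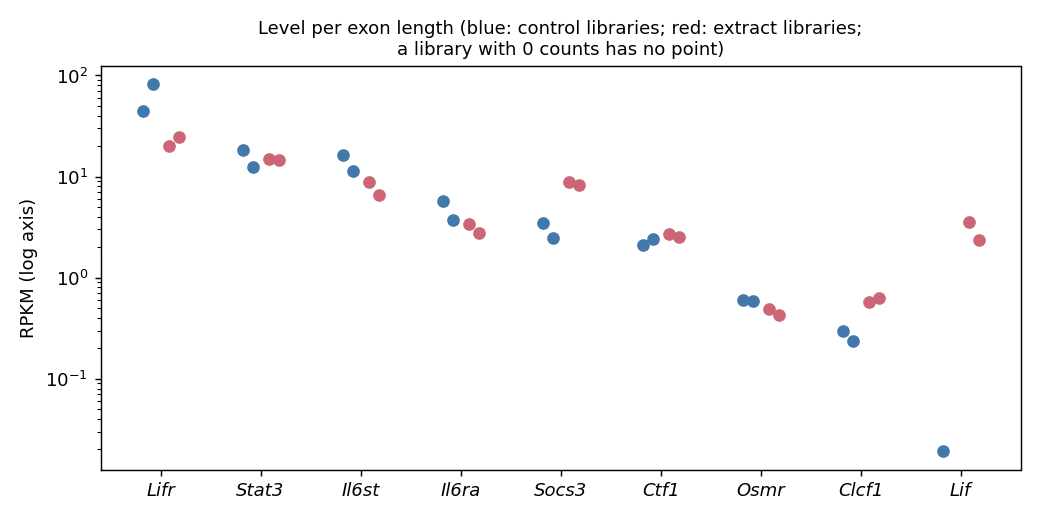
Level per exon length in RPKM on a log axis, with each point a library (blue for control, red for extract; control replicate 2 has 0 Lif reads and no point). Lifr is highest in both groups, and Lif goes from 0.0192 RPKM in control replicate 1 to 3.57 and 2.35 RPKM in the extract libraries.

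Interleukin 6, Il11 and oncostatin M had at most 11 reads in a library. Interleukin 6 had 1 and 2 reads in control and 1 and 0 in extract libraries, Il11 had 2, 1, 1 and 11, and oncostatin M (Osm) had 1, 0, 1 and 6. A count of 0 allows up to 0.0625 to 0.101 CPM in these libraries (3 counts). Cntf, ciliary neurotrophic factor, had 2, 8, 15 and 11 reads (edgeR log2 fold change 0.99 with an SE of 1.03, adjusted p = 0.636). Of 9 other ligand genes on the list 3 could be tested, 0 were higher (0 also by DESeq2 or at an unadjusted p under 0.05) and 1 was lower. That gene, named here after its values were seen, is Ebi3, a subunit of interleukin 27, with 79 and 30 counts in control and 8 and 5 in extract libraries (1.65 and 1.01 against 0.185 and 0.105 CPM). Its edgeR log2 fold change was -3.18 with an SE of 0.69 (adjusted p = 0.0376), and the call was lost without extract replicate 1 (0.180) or extract replicate 2 (0.285) and with total-count scaling (0.0506). The other subunit, Il27, had 18 and 8 against 0 and 3 counts (edgeR adjusted p = 0.167). Ebi3 and Il27 passed the filter on low counts through their control libraries alone and were not tested under a stricter filter (a mean of at least 1 CPM and 10 counts in 2 libraries), so nothing is read from the count of this list. Macrophages are a known source of both subunits, and the Kupffer cell markers described above fell with them, a part that was not tested.

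The median log2 fold change of the 3 tested ligand genes was -3.18. As 2 of them, Ebi3 and Il27, passed the filter through their control libraries alone, nothing is read from this median. It was -1.34 without control replicate 1, and its sign turned without a low-count filter (0.80 over 8 genes). Of 5 other receptor chains 3 could be tested and 0 passed, by edgeR or DESeq2. Their median was -0.41, beside -0.0047 over all genes tested. Il11ra1, the interleukin 11 receptor, had 49.7 and 46.7 CPM in control and 34.7 and 37.9 CPM in extract libraries (edgeR log2 fold change -0.41, adjusted p = 0.124). Cntfr, which binds Cntf and Clcf1, had 60 and 77 against 21 and 30 counts (-1.77, adjusted p = 0.120), and Il27ra had 104 and 53 against 90 and 74 counts (-0.12, 0.900). At an unadjusted p under 0.05, 2 of the 3 were lower (Il11ra1 and Cntfr) and 0 higher. Of all 13963 genes tested, 3280 had such a p, in either direction. Cntfr was past the threshold without control replicate 1 (adjusted p = 0.00129) and Il11ra1 without control replicate 2 (0.0186). The sign of Il27ra turned under 3 alternatives.

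Among 10 Janus kinase and other Stat genes, 1 was higher and 1 lower, where 4.91% of all genes tested were higher and 3.63% lower. Their median was -0.33. Jak3, a kinase known mainly from lymphocytes, rose from 12.7 and 12.4 to 23.1 and 26.3 CPM (edgeR log2 fold change 0.97 with an SE of 0.16, adjusted p = 0.0139). Of 6 T and NK cell markers 0 passed by edgeR. DESeq2 called 2 lower, and 3 were lower at an unadjusted p under 0.05, which 3280 of all 13963 genes had in either direction. The summed level of these markers was 17.1 and 2.96 CPM in control and 1.11 and 2.52 CPM in extract libraries, so the extract sums lay below both controls. Stat5b, the mediator of growth hormone signals in liver, fell from 127.4 and 98.9 to 65.9 and 65.0 CPM (-0.79, SE 0.16, adjusted p = 0.0318). Both calls were lost with either extract library left out, and that of Stat5b also with total-count scaling. Stat2 did not pass (-0.47, edgeR adjusted p = 0.0903), but it did with DESeq2 (0.0420), without control replicate 1 (0.00824) and without control replicate 2 (0.0197). The count of lower genes on the list was 2 with DESeq2 and without control replicate 1, and 4 without control replicate 2.

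Of 15 other inhibitors and phosphatases, 1 was higher and 0 lower by edgeR, where 4.91% of all genes tested were higher and 3.63% lower. Their median was 0.015. DESeq2 also called 0 lower, and 2 were lower at an unadjusted p under 0.05. Such a p was found for 3280 of all 13963 genes tested, in either direction. Pias3, a protein inhibitor of activated Stat3, rose from 6.40 and 5.45 to 12.1 and 13.4 CPM (edgeR log2 fold change 1.10 with an SE of 0.20, adjusted p = 0.0223). It did not pass with either extract library left out. Socs2, which damps growth hormone signals, had 55.3 and 137.3 CPM in control and 22.4 and 38.2 CPM in extract libraries (-1.67, SE 0.54, adjusted p = 0.171). The phosphatases Ptpn6 (-0.40, adjusted p = 0.136) and Ptpn1 (0.32, 0.253) did not pass. Ptpn6 passed without control replicate 2 (0.0418) and Ptpn1 without control replicate 1 (0.0366). The list had 3 higher genes without control replicate 1 and 2 lower without control replicate 2. Socs1, a close relative of Socs3, had 1.23 and 0.202 against 0.440 and 0.840 CPM, with overlap (edgeR adjusted p = 0.929).

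Of 17 early targets of Stat3, 5 rose and 0 fell (0 also by DESeq2 or at an unadjusted p under 0.05). Their median was 0.57. Among all genes tested, 4.91% were higher and 3.63% lower, with a median of -0.0047. Bcl2l1, which protects cells from apoptosis, went from 43.0 and 34.1 to 90.6 and 94.0 CPM (edgeR log2 fold change 1.26 with an SE of 0.16, adjusted p = 0.00683). Myc went from 4.92 and 4.75 to 9.90 and 14.5 CPM (1.34, SE 0.25, adjusted p = 0.0238). The cyclin gene Ccnd1 (0.999, adjusted p = 0.0197) and Cebpb, a transcription factor of acute phase genes (0.90, 0.0120), rose as well. The fifth, named after its values were seen, is Icam1, an adhesion molecule for leukocytes (1.20, adjusted p = 0.0299). The other 12, among them Junb, Fos and Bcl3, did not pass. Cebpd, also among them and named after its values were seen, was lower in both extract libraries. It had 10.2 and 6.70 against 6.12 and 5.23 CPM (edgeR log2 fold change -0.58, adjusted p = 0.267). On this list both extract libraries lay above both controls for 8 genes and below for 1. The groups did not overlap for 54.4% of all genes tested. Each of the 5 has other known inducers than Stat3. The count was 2 without extract replicate 1 or extract replicate 2, and 10 without control replicate 1. Without control replicate 2, 1 gene was lower. The median was 0.15 without control replicate 2.

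Acute phase genes of hepatocytes went in both directions. Of 30, 2 rose and 3 fell, beside 4.91% higher and 3.63% lower among all genes tested, and the median was -0.089. Serpina3n, a serine protease inhibitor, went from 331.2 and 328.0 to 1256 and 1091 CPM (edgeR log2 fold change 1.83 with an SE of 0.15, adjusted p = 0.00139). Orm2, orosomucoid 2, went from 38.8 and 33.2 to 103.6 and 65.8 CPM (1.23, SE 0.23, adjusted p = 0.0272). Both families have close copies. Reads without a unique alignment, 5.18% to 9.03% of records in a library, were assigned to no gene, so such genes may have lost reads. That loss was not examined for these families. The fibrinogen chains Fga (-1.002, adjusted p = 0.0139), Fgb (-1.01, 0.0124) and Fgg (-1.03, 0.0113) fell. Chosen after their values were seen, serum amyloid A1 (Saa1) had 55.3 and 27.7 against 47.3 and 29.9 CPM, with overlap, and lipocalin 2 (Lcn2) had 11.0 and 19.3 against 81.2 and 36.2 CPM (adjusted p = 0.114). Without either extract library, 0 of the 3 lower calls passed. The count of lower genes was 7 with DESeq2, 7 without control replicate 1 and 8 without control replicate 2, 8 were lower at an unadjusted p under 0.05, and the count of higher genes ran from 1 to 7 with a library left out. Among all 13963 genes tested, 3280 had an unadjusted p under 0.05, in either direction. The sign of the list median turned with total-count scaling (0.078) and without control replicate 1 (0.11).

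**Figure D5:**
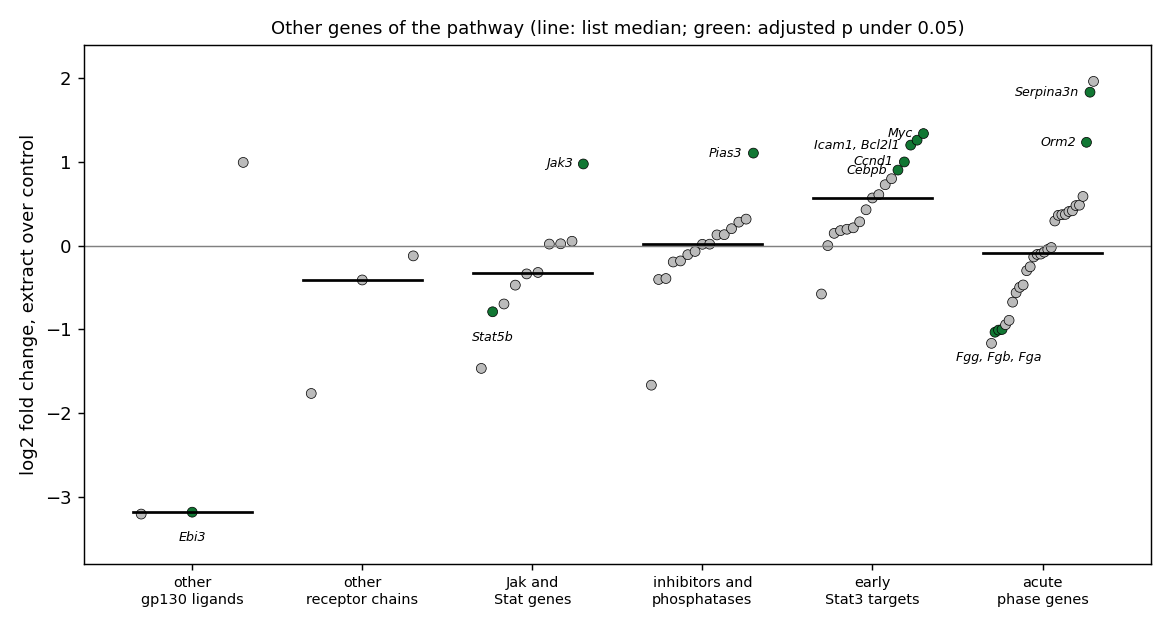
Log2 fold change, extract over control, of the tested genes on 6 pathway lists (points, edgeR, green and named where the adjusted p is under 0.05, black lines for list medians). Early targets of Stat3 have 5 higher genes of 17 and a median of 0.57, and acute phase genes have 2 higher and 3 lower of 30. Among all genes tested, 4.91% are higher and 3.63% lower.

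The STAT motif was not limited to genes that rose. It was found for 2 of 14 early target genes with a window (2 of 19 windows) and 7 of 25 acute phase genes (7 of 28 windows). Of all windows, 8.30% held it. On these lists Irf1, Apcs, Itih4, Hamp, Agt and Steap4 also had a match and did not pass the threshold. The matches of Icam1, which rose, and of Fga and Fgb, which fell, are shown with 8 bases on each side and the motif in capitals, on the strand of the gene. They lie at chr9:21015898-21015906 (Icam1, plus strand), chr3:83025919-83025927 (Fga, plus strand) and chr3:83050017-83050025 (Fgb, minus strand). The match of Socs3, at chr11:117969512-117969520 on the minus strand, is set beside them.
Socs3: aaccagccTTCTTAGAAgggagggg
Icam1: cgcgaggtTTCCCGGAAagtggccc
Fga: gcccccatTTCCTGGAAtgtagatt
Fgb: ctcaatgaTTCGAGGAAccccctgt

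The genes most like Lif over the 4 libraries were found by the Euclidean distance of log2(CPM + 0.1) among 13231 tested genes. The nearest were Zfp365, a zinc finger protein (distance 0.88), Sprr1a, a small proline-rich protein (0.94), the sarcomere protein Myom3 (1.04), Prrg4 (1.40) and Tekt5, a tektin (1.60). Zfp365 had 0 and 0 counts in control and 714 and 466 in extract libraries. Sprr1a had 1 and 0 against 508 and 318 counts, and Tekt5 0 and 0 against 308 and 289. In Lif, Zfp365, Sprr1a, Myom3 and Prrg4 alike, extract replicate 1 lay above extract replicate 2 by more than in Tekt5. With 4 libraries and 2 groups, nearness mainly means a like level in each group, and nothing is read from it about function or control.

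Neutrophil markers, known from cells that can answer or make such cytokines, stayed low. Their summed level was 8.96 and 3.50 CPM in control and 3.29 and 4.43 CPM in extract libraries, 0 of 4 tested passed, and Ly6g had 0 counts in control replicate 2 and extract replicate 2. Monocyte markers (0 of 4 past the threshold) summed to 18.7 and 11.8 against 19.4 and 14.6 CPM, with Plac8 the largest part. For 1 of the 4, Ccr2, both extract libraries lay above both controls, and for the other 3 the groups overlapped. Ccr2, named like Plac8 after its values were seen, had 3.84 and 1.48 against 4.94 and 3.95 CPM (edgeR adjusted p = 0.423). Cholangiocyte markers summed to 43.1 and 50.2 against 43.8 and 46.1 CPM, mostly from Spp1. Of these 5, 1 was lower, Sox9 (edgeR log2 fold change -1.60, adjusted p = 0.0266). Krt19, named like Spp1 and Sox9 after its values were seen, had 1.94 and 1.31 against 6.19 and 3.21 CPM (edgeR log2 fold change 1.52, adjusted p = 0.0875), and DESeq2 called 1 marker higher. Mesothelial markers (0 of 3) summed to 7.69 and 4.68 against 4.24 and 1.83 CPM. B cell markers (0 of 3) summed to 2.54 and 1.51 against 1.62 and 1.41 CPM. On the edgeR lists with a count of 0, 2 mesothelial markers were lower at an unadjusted p under 0.05 and 1 by DESeq2. For neutrophils, monocytes and B cells, 0 markers passed either way. An unadjusted p under 0.05 was found for 3280 of all 13963 genes tested, in either direction. For none of these lists, nor for T and NK cells, did both extract sums lie above both control sums. Such sums weigh the most abundant marker most.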

How the data were processed

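Total RNA of mouse liver was taken with Trizol and sequenced on Illumina libraries, per the labels' protocols. CASAVA 1.8, HISAT2 2.1.0, HTSeq and the mm10 build are named without roles per the submitters' processing notes; annotation and strand setting are not stated there. The authors deposited raw read counts per gene symbol, and 5 closing rows that name no gene (16.5% to 22.0% of records) stayed out.

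The test was that of edgeR 4.0.16, run in R 4.3.3 (filterByExpr, TMM, robust quasi-likelihood fit, 2-sided, Benjamini-Hochberg adjustment, threshold 0.05). Each standard error is the log2 fold change over the square root of F. CPM use TMM-scaled library sizes, RPKM merged exons of GENCODE vM21, and positions and promoters RefSeq GRCm38.p6. The edgeR step was tested on simulated data. Alternatives were other scalings, DESeq2 1.42.0, other filters, no robust step, leaving out the 20 most abundant genes or each library, and a replicate block. Where a library was left out, the single one left in its group was taken to vary as the other pair does. A planned comparison of protein sequences is not analysed here.

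The members and lists were chosen with earlier results of these data known. Named genes are the members, Il6, Il11, Osm and Cntf, from each list up to 4 genes with the smallest p and a mean of at least 1 CPM plus up to 2 called against the list's direction, and the 5 genes nearest to Lif without predicted genes. Of the genes this rule takes, 1 is not reported here.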

Additional observations from a re-analysis of the deposited data

How the results depend on the processing

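The direction and call of the members other than Lif were kept in 83 of 96 gene and setting pairs, a call was gained in 8 and lost in 3, and the sign turned in 2, both for Stat3 (0.11 with total-count scaling, and from -0.31 without control replicate 2 to 0.26 without control replicate 1). Il27ra turned to 0.044 with total-count scaling and to 0.026 without control replicate 1, and ran from -0.36 without extract replicate 1 to 0.057 without extract replicate 2. With a library left out, calls over all genes ran from 233 to 1826 higher and from 134 to 1782 lower, members from 1 to 2 higher and from 0 to 3 lower, and pathway genes from 3 to 16 higher and from 0 to 17 lower. The 233 and 134 came without extract replicate 1, the 1826 without control replicate 1 and the 1782 without control replicate 2. DESeq2 called 1034 genes higher and 921 lower, 2 members lower and 10 pathway genes lower, where edgeR called 686, 507, 1 and 5. Pathway genes called lower were 3 with total-count scaling. They were also 3 without the 20 most abundant genes, among them Fga and Fgb, which that setting did not test. The groups share replicate numbers that the labels do not tie to a common animal or batch. Same-numbered libraries deviated together at r = 0.22 across 13963 genes. The fit with a replicate block called 902 genes higher and 682 lower and 3 members lower (Lifr, Il6st at an adjusted p of 0.00828 and Il6ra at 0.0449), and it called Socs2 lower (log2 fold change -1.58, adjusted p = 0.00330). Other than this removal of Fga and Fgb, the cause of these changes was not tested. With 2 libraries a group and 0 to 4 reads of Lif in control, the control level of Lif is set by few reads.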
